A study of Caenorhabditis elegans with 24 samples.

Results

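UDP-glucuronosyltransferases (UGTs), encoded by the ugt genes of Caenorhabditis elegans, were followed in whole worms of 2 strains under RNA interference (RNAi) by feeding. The members were chosen by name and level. Of 62 genes in the deposited expression table with a symbol starting with ugt-, the 56 with a mean of at least 1 CPM (normalized read count on a scale on which each library sums to 1000373) in at least 1 of 8 groups were kept, among 14561 kept genes of 16927 in the table. UGTs are enzymes of the endoplasmic reticulum membrane that attach a sugar, taken from a UDP-sugar donor, to small lipophilic molecules. The conjugates are more soluble and can be exported, which makes UGTs the second phase of detoxification after oxidation by cytochromes P450. Vertebrate UGTs mostly transfer glucuronic acid, and worms are also known to make glucosides. The family is expanded in C. elegans, and the intestine is regarded as its main site of xenobiotic metabolism.

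The worms were VC3201, which the labels describe as a mutant of atfs-1, and N2, the wild type. Each strain received cco-1 and elt-2 RNAi bacteria together, elt-2 RNAi, cco-1 RNAi or control bacteria carrying an empty RNAi vector, with 3 libraries in each of the 8 groups. All worms were fed the RNAi bacteria for 2.5 days at 20 °C and were collected as L4 larvae or young adults. The product of cco-1 is part of cytochrome c oxidase, the last complex of the respiratory chain. ELT-2 is the GATA factor that keeps intestinal genes on, and ATFS-1 switches on the mitochondrial unfolded protein response. The share of cco-1 RNAi bacteria is 50% in the labels, both alone and combined with elt-2 RNAi. The share of elt-2 RNAi bacteria is 50% in the labels but 25% in the authors' key sheet. No label says whether the 3 libraries of a group came from separate cultures, so the p-values measure the spread between these libraries, which may be technical. Only 1 mutant strain was used.

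Among the targeted genes, atfs-1 ranged from 19.98 to 29.3 CPM in the 12 VC3201 libraries, against 71.0 to 85.5 CPM in the 12 N2 libraries. cco-1 ranged from 63.96 to 134.7 CPM in the 12 libraries given its RNAi, against 213.7 to 354 CPM in the other 12. With cco-1 RNAi against control, cco-1 itself changed by -1.47 (log2) in VC3201 and -1.18 in N2. In N2 on elt-2 RNAi bacteria it changed by -1.67. The fall of the target was thus unequal between the strains and between the bacteria, and its part in the ugt changes was not tested. elt-2 ranged from 5.14 to 15.98 CPM with its RNAi, against 12.5 to 21.1 CPM without it, and these ranges overlapped. The library labelled VC3201 elt-2 RNAi replicate 3 held the 15.98 CPM, whereas replicates 1 and 2 of that group had 6.52 and 8.84 CPM. Without this library 46 ugt genes were called for elt-2 RNAi in VC3201, against 49 with it. The library sums are equal, as after quantile normalization. Reads counted back from tied low values put 1 CPM at 7 to 38 reads per library, 33 to 38 reads in the 6 VC3201 libraries with elt-2 RNAi and 7 to 9 in the VC3201 controls. Low values of the controls are therefore less precise.

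The ugt genes differed widely in level and in how many groups expressed them. On control bacteria the summed level of the 56 genes was 721 ± 22.8 CPM in VC3201 and 750.4 ± 11.3 CPM in N2 (mean ± SD, n = 3 each). Corrected for length, the highest member on control bacteria was ugt-47, at 52.7 CPM per kb of exons in VC3201 and 46.8 CPM per kb in N2. In VC3201 it was followed by ugt-22 (34.4 CPM per kb) and ugt-58 (30.1 CPM per kb). In N2 it was followed by ugt-62 (41.9 CPM per kb) and ugt-22 (37.4 CPM per kb). A total of 35 members reached a mean of 1 CPM in all 8 groups, while ugt-34 and ugt-3 reached it in 1 group each. The members nearest to the threshold were ugt-34 with 1.02 CPM in its highest group and ugt-3 with 1.24 CPM, and outside it ugt-42 with 0.877 CPM and ugt-56 with 0.839 CPM. ugt-15, ugt-59, ugt-18 and ugt-10 were also left out, with highest group means of 0.463 to 0.786 CPM. The highest group mean of a member was most often that of the VC3201 control (16 members) or the N2 control (10 members), and the lowest was most often that of VC3201 with elt-2 RNAi (20 members).

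**Figure D1:**
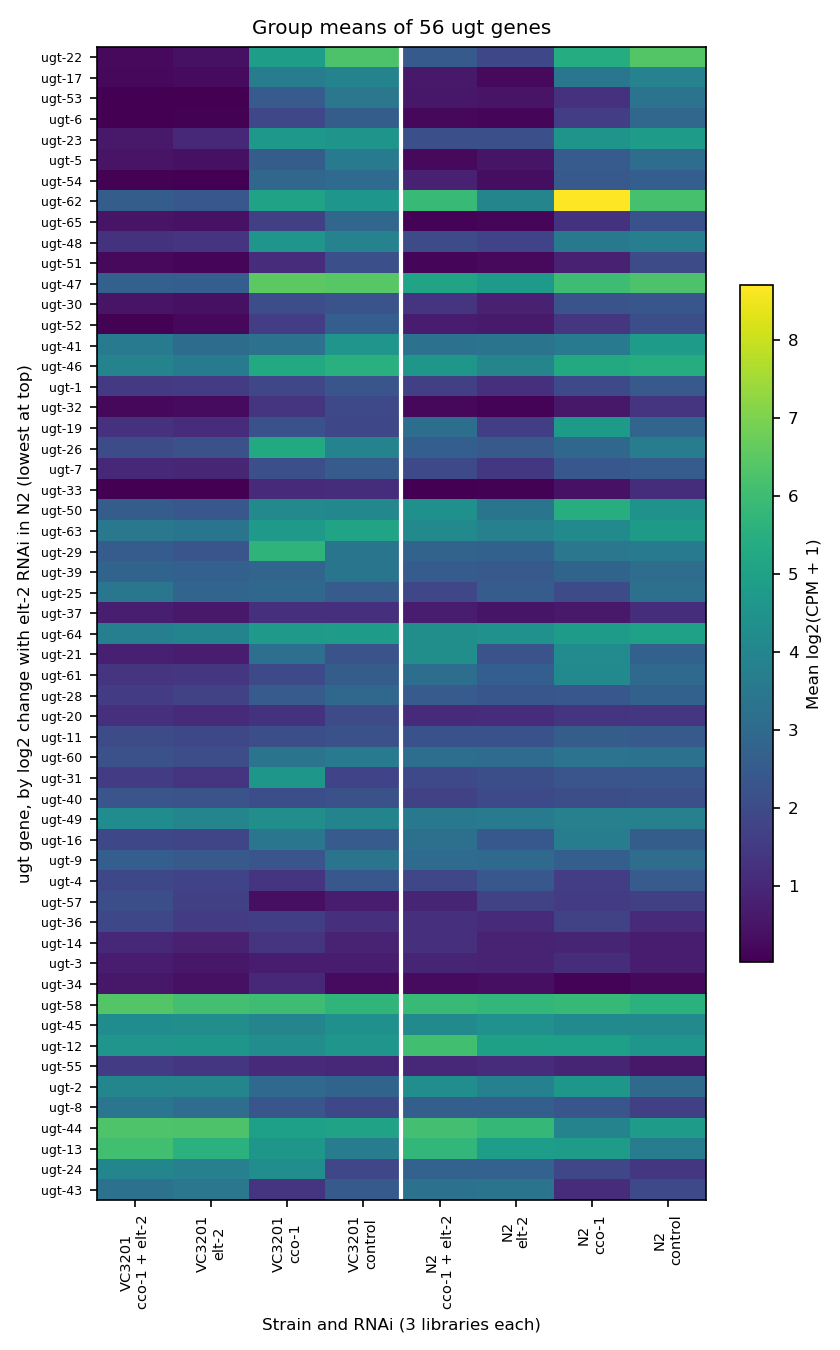
Mean log2(CPM + 1) of the 56 ugt genes (rows) in the 8 groups of 3 libraries (columns, VC3201 left and N2 right), with genes ordered by their change with elt-2 RNAi in N2. Genes at the top are dark in the columns with elt-2 RNAi in both strains, and ugt-62 in N2 with cco-1 RNAi is the brightest cell.

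cco-1 RNAi changed the composition of the family differently in the 2 strains. In VC3201, 17 members rose and 24 fell with cco-1 RNAi (41 of 56, against 64% of all genes tested). In N2, 14 members rose and 25 fell (39 of 56, against 33.8% of all genes). The libraries of the 2 groups did not overlap for 41 members in VC3201 and 42 in N2, against 63.6% and 43.6% of all genes. These calls are at an adjusted p under 0.05 in limma across all genes. In the directions separately, 26.9% of all genes rose and 37.1% fell in VC3201, and 17.5% rose and 16.4% fell in N2. The excess of member falls over rises in VC3201 was not kept under trimmed-mean scaling. The member median was -0.12 in VC3201 and -0.16 in N2 on the log2 scale, against -0.06 and 0.01 for all genes. The summed family level with cco-1 RNAi was 745.1 ± 14.2 CPM in VC3201, against 721 ± 22.8 CPM on control bacteria. In N2 it was 1058 ± 19.3 CPM with cco-1 RNAi, against 750.4 ± 11.3 CPM on control. Without ugt-62 the N2 sums were 641 ± 22.3 CPM with cco-1 RNAi and 679.6 ± 12.1 CPM on control (SD, n = 3).

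The test of the difference between the strains, an interaction of cco-1 RNAi with strain, called 28 of the 56 members, 15 positive and 13 negative. Of all genes, 40% were called, 16.8% positive and 23.2% negative. A positive term means a larger rise or smaller fall in VC3201 than in N2. ugt-2, ugt-12, ugt-19, ugt-21, ugt-50, ugt-61 and ugt-62 rose in N2 and had a negative term, and ugt-24, ugt-25, ugt-26, ugt-29, ugt-31, ugt-48 and ugt-49 rose in VC3201 and had a positive term. The term and the change within a strain share libraries and are not independent. The calls of ugt-3 and ugt-34, also counted above, are no support, since ugt-3 reached 1 CPM only in N2 with cco-1 RNAi and ugt-34 only in VC3201 with cco-1 RNAi. For 5 members that rose in both strains, ugt-8, ugt-13, ugt-16, ugt-36 and ugt-58, no difference between the strains was called.

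**Figure D2:**
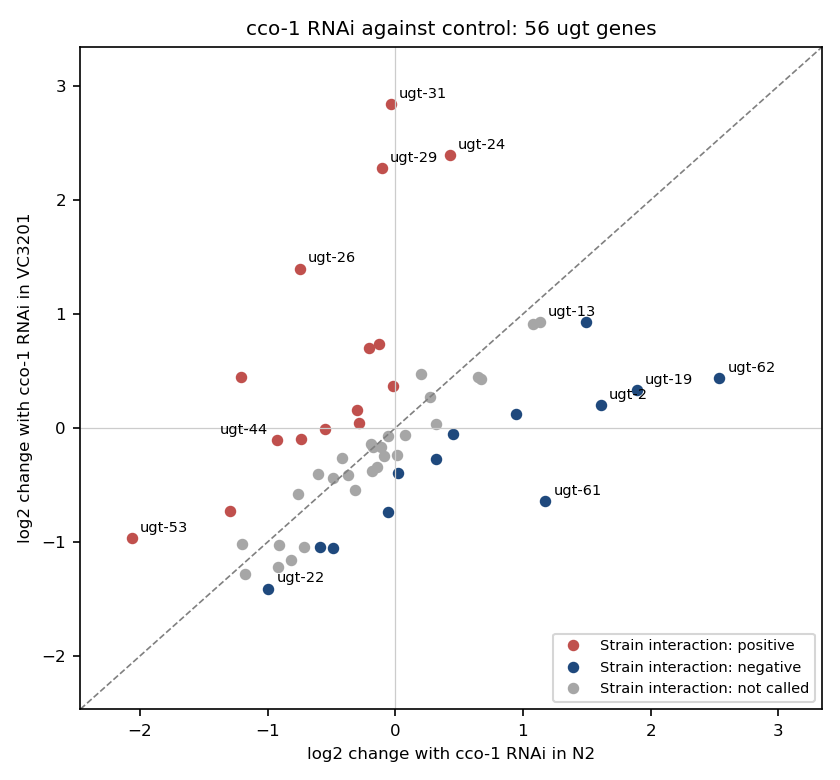
log2 change with cco-1 RNAi against control in VC3201 (vertical axis) and in N2 (horizontal axis) for 56 ugt genes, coloured by the interaction of cco-1 RNAi with strain. The dashed line marks equal changes; 15 genes with a positive term lie above it, led by ugt-31 at 2.84 in VC3201, and 13 with a negative term lie below it, led by ugt-62 at 2.54 in N2.

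ugt-62, a single gene at 4537281 to 4540623 on the minus strand of chromosome III (WBcel235), had 30.3, 33.3 and 30.8 CPM in VC3201 with cco-1 RNAi, against 22.9, 22.9 and 23.1 CPM in VC3201 on control. The N2 libraries had 413, 417 and 419 CPM with cco-1 RNAi, against 69.04, 71.7 and 71.6 CPM on control. The groups did not overlap within either strain, and every N2 library was above every VC3201 library on the same bacteria. On the log2(CPM + 1) scale it rose by 0.44 ± 0.06 (SE) in VC3201 (limma, adjusted p = 1.03e-07) and by 2.54 ± 0.06 in N2 (adjusted p = 7.79e-24), and the interaction was -2.10 ± 0.08 (adjusted p = 3.82e-18). With cco-1 RNAi, ugt-62 made up 4.22 ± 0.208% of the family's summed CPM in VC3201 and 39.4 ± 1.01% in N2 (SD, n = 3 each). Its level per length in N2 was then 246 CPM per kb, and the next member, ugt-47, had 38.3 CPM per kb.

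ugt-19, on the minus strand of chromosome IV from 6076686 to 6079952, had 3.72, 3.19 and 4.03 CPM in VC3201 with cco-1 RNAi, against 2.52, 3.23 and 2.33 CPM on control. N2 worms had 27.9, 27.2 and 23.7 CPM with cco-1 RNAi, against 7.27, 5.28 and 6.61 CPM on control. The N2 groups were far apart, and in VC3201 the lowest library with cco-1 RNAi was below the highest control library. The interaction was -1.56 ± 0.18 (SE; limma, adjusted p = 5.7e-08). ugt-2, on chromosome V from 10398801 to 10401307, had 7.45, 6.25 and 7.53 CPM in VC3201 with cco-1 RNAi, against 4.82, 6.44 and 6.96 CPM on control, and the libraries overlapped. Its N2 libraries had 25.4, 24.2 and 21.9 CPM with cco-1 RNAi, against 7.2002, 7.02 and 7.14 CPM on control, with an interaction of -1.41 ± 0.13 (adjusted p = 1.53e-09). The 2 strains thus had a called difference in the response of ugt-2, whose change in VC3201 missed the threshold.

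ugt-61 moved in opposite directions in the strains. It had 2.93, 2.94 and 2.68 CPM in VC3201 with cco-1 RNAi, against 4.82, 4.59 and 5.65 CPM on control, and fell there (log2 change -0.64 ± 0.12, SE; limma, adjusted p = 3.6e-05). Its N2 values were 17.1, 17.5 and 16.97 CPM with cco-1 RNAi, against 8.81, 5.85 and 6.7997 CPM on control, and rose (log2 change 1.17 ± 0.12, adjusted p = 5.08e-09). ugt-12 was the other member that fell in VC3201 and rose in N2, by smaller amounts of -0.27 and 0.32. ugt-21 rose in both strains, to 7.93, 8.94 and 7.48 CPM in VC3201 with cco-1 RNAi against 3.73, 2.97 and 4.74 CPM on control, and to 17.4, 17.1 and 18.01 CPM in N2 with cco-1 RNAi against 6.34, 5.16 and 5.29 CPM on control.

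The members ugt-31, ugt-29, ugt-26 and ugt-24 were high in VC3201 with cco-1 RNAi. ugt-31, on chromosome I, had 22.9, 24.7 and 22.7 CPM in VC3201 with cco-1 RNAi, against 1.53, 2.61 and 3.31 CPM on control. In N2 it had 4.98, 3.62 and 3.44 CPM with cco-1 RNAi, against 3.57, 4.56 and 4.21 CPM on control, and these overlapped. Its interaction of 2.88 ± 0.20 (SE; limma, adjusted p = 2.53e-12) was the most positive of the 56 members. ugt-29, on the minus strand of chromosome V from 696524 to 699589, had 50.2, 54.1 and 47.2 CPM in VC3201 with cco-1 RNAi, against 9.96, 8.92 and 9.91 CPM on control. Its N2 libraries had 10.9, 9.94 and 9.62 CPM with cco-1 RNAi, against 12.3, 10.6 and 10.1 CPM on control. The VC3201 libraries with cco-1 RNAi were the only ones above 12.3 CPM among the 24, and the interaction was 2.39 ± 0.17 (adjusted p = 3.93e-12).

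ugt-26, on chromosome I, had 37.4, 42.1 and 35.8 CPM in VC3201 with cco-1 RNAi, against 13.6, 14.03 and 14.2 CPM on control, a rise of 1.40 ± 0.10 (log2, SE; limma, adjusted p = 3.3e-12). The N2 libraries had 6.79, 6.38 and 6.58 CPM with cco-1 RNAi, against 13.4, 12.2 and 9.897 CPM on control, a log2 change of -0.75 (adjusted p = 1.63e-06). The groups did not overlap in either strain, and the directions were opposite. ugt-24, on chromosome IV from 6206821 to 6210720, had 19.3, 19.5 and 16.98 CPM in VC3201 with cco-1 RNAi, against 2.52, 2.37 and 3.31 CPM on control. N2 worms had 2.37, 2.65 and 2.996 CPM with cco-1 RNAi, against 2.05, 1.16 and 2.09 CPM on control. It was called higher in both strains, with an interaction of 1.97 ± 0.17 (adjusted p = 3.13e-10).

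**Figure D3:**
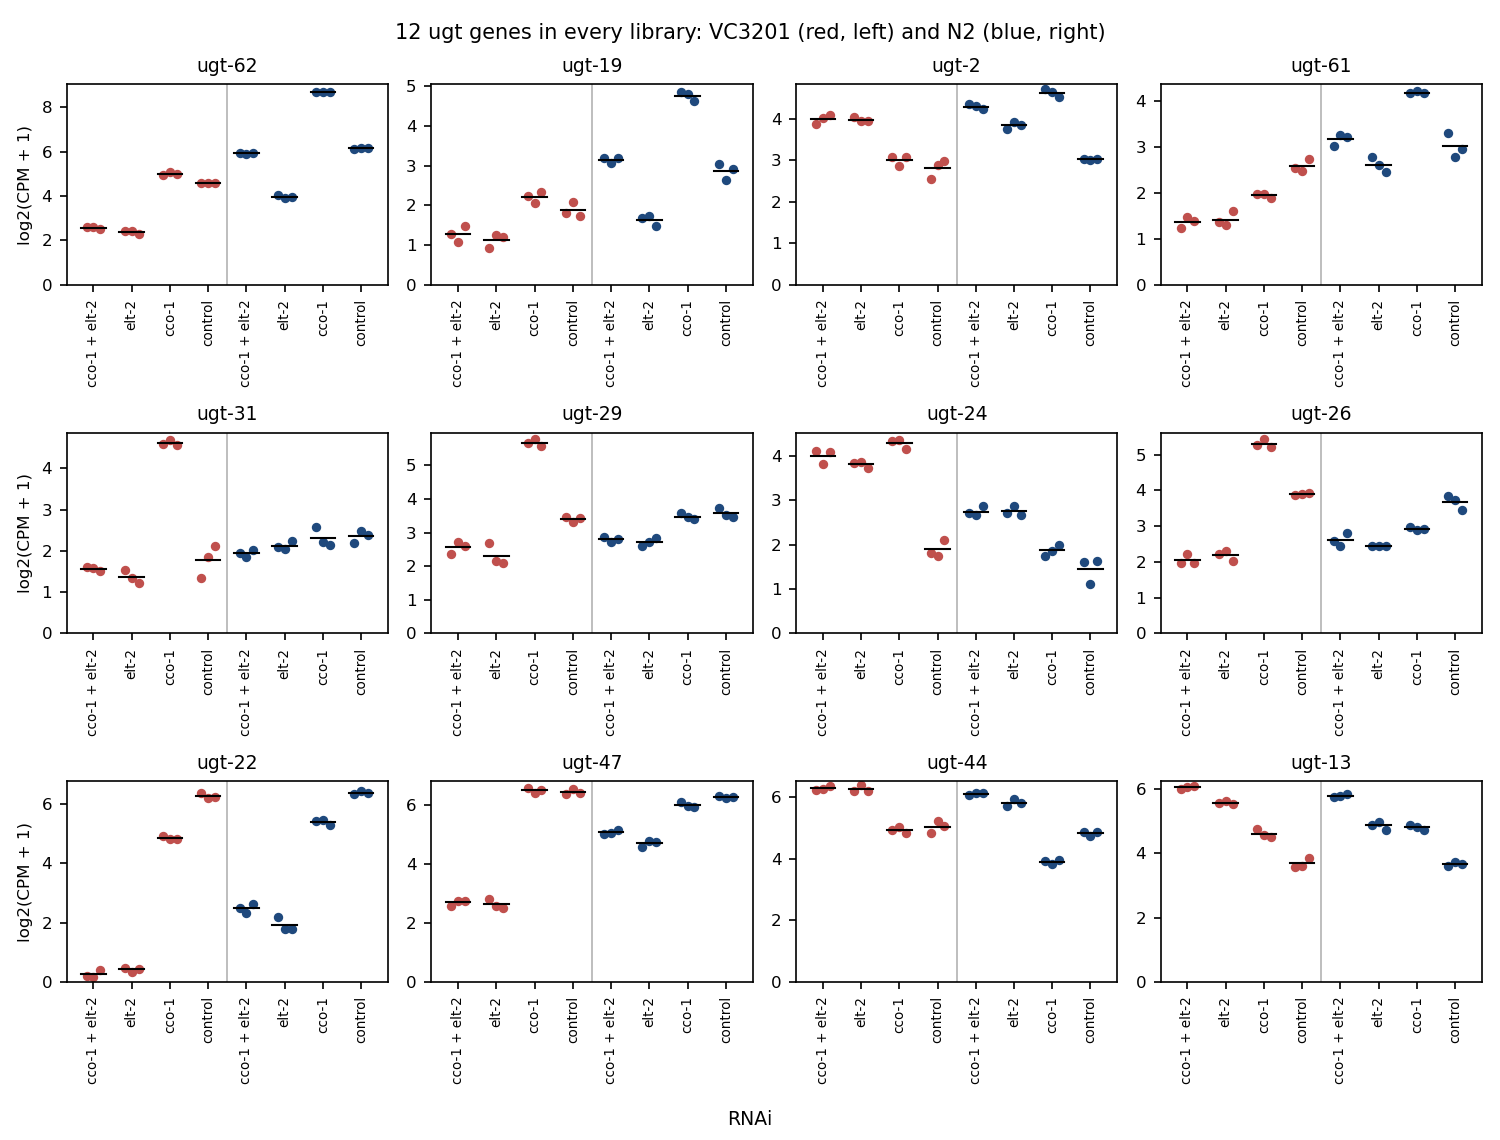
log2(CPM + 1) of 12 ugt genes in each of the 24 libraries (points), with VC3201 left in red, N2 right in blue, and a line at the mean of 3 libraries. The top row rises with cco-1 RNAi mainly in N2 and the middle row in VC3201; in the bottom row ugt-22 and ugt-47 are low and ugt-44 and ugt-13 high with elt-2 RNAi.

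ugt-13 rose in both strains. This gene, on chromosome V from 4908884 to 4911399, had 25.9, 22.7 and 21.9 CPM in VC3201 with cco-1 RNAi, against 10.97, 11.3 and 13.5 CPM on control. Its N2 values were 28.5, 26.9 and 25.5 CPM with cco-1 RNAi, against 11.2, 12.4 and 11.6 CPM on control. The changes were 0.93 ± 0.07 in VC3201 and 1.13 ± 0.07 in N2 (log2, SE; limma, adjusted p = 1.1e-11 and 5.29e-13), and the interaction missed the threshold (-0.20 ± 0.10, adjusted p = 0.123). ugt-58 rose by 0.28 ± 0.07 in VC3201 and 0.27 ± 0.07 in N2. A total of 17 members fell in both strains, 70.8% of the 24 that fell in VC3201 and 68% of the 25 that fell in N2. Over all genes the like shares were 30% in VC3201 and 67.8% in N2.

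Among these 17 were ugt-41 and ugt-22. ugt-41 had 9.404, 8.46 and 8.402 CPM in VC3201 with cco-1 RNAi, against 21.1, 24.9 and 22.1 CPM on control, and 11.4, 10.8 and 11.6 CPM in N2 with cco-1 RNAi, against 27.97, 28.5 and 23.6 CPM on control. ugt-22 had 29.4, 27.4 and 27.6 CPM in VC3201 with cco-1 RNAi, against 82.9, 72.6 and 73.8 CPM on control. In N2 it had 42.4, 42.8 and 38.7 CPM with cco-1 RNAi, against 80.99, 86.5 and 81.7 CPM on control. Its groups did not overlap in either strain. The larger fall of ugt-22 in VC3201 passed the test (-0.42 ± 0.14, SE; limma, adjusted p = 0.0175) but was no longer called under trimmed-mean scaling (adjusted p = 0.0716) or without the VC3201 control replicate 1 (adjusted p = 0.0566). ugt-53 had 4.97, 5.27 and 4.03 CPM in VC3201 with cco-1 RNAi, against 10.1, 10.7 and 9.91 CPM on control, and 1.702, 1.11 and 1.401 CPM in N2 with cco-1 RNAi, against 9.005, 9.15 and 8.85 CPM on control.

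Markers of several tissues moved with cco-1 RNAi, and their part in these changes was not tested. The summed level of 12 intestinal genes was 11067 to 11169.6 CPM in VC3201 with cco-1 RNAi, against 6329.7 to 7372 CPM on control. In N2 it was 10637 to 10733 CPM with cco-1 RNAi, against 5923 to 5939 CPM on control. Of the 12, 9 rose and 2 fell in VC3201, and 6 rose and 2 fell in N2. The share of all genes called was 64% in VC3201 and 33.8% in N2. The interaction with strain was positive for 4 and negative for 3 of the 12, against 40% of all genes called. Of 8 hypodermal genes, 5 rose and 2 fell in VC3201 with cco-1 RNAi, and 1 rose and 1 fell in N2. Of 6 neuronal genes 5 rose in VC3201 and 1 in N2, of 5 body muscle genes 4 rose in VC3201 and 3 rose and 1 fell in N2, and of 6 germline genes 5 fell in VC3201 and 1 in N2. In whole worms, fewer cells of a type and less RNA per cell cannot be told apart. The worms were L4 larvae or young adults, and a difference in stage between the groups was not tested.

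Most ugt genes fell with elt-2 RNAi in both strains. In VC3201, 11 members rose and 38 fell, a share of 87.5% called, against 85.8% of all genes. In N2, 10 rose and 33 fell, a share of 76.8% called, against 48% of all genes. ugt-5, ugt-6, ugt-17, ugt-32, ugt-33, ugt-37, ugt-51, ugt-52, ugt-53, ugt-54 and ugt-65 reached a mean of 1 CPM only in groups without elt-2 RNAi. Their falls, counted here and below, are no support. The 2 groups' libraries did not overlap for 47 members in VC3201 and 45 in N2, against 86.6% and 53.4% of all genes. The share of members that fell was 67.9% in VC3201 and 58.9% in N2, against 49.4% and 21.8% of all genes. The member median was -0.93 in VC3201 and -0.60 in N2 (log2), against medians of -0.18 and 0.02 over all genes. Under trimmed-mean scaling the all-gene median in VC3201 moved to -0.003 and the member median to -0.77, with 13 members higher and 36 lower. The summed level of the family with elt-2 RNAi was 413 ± 12.6 CPM in VC3201, against 721 ± 22.8 CPM on control, and 431 ± 19.3 CPM in N2, against 750.4 ± 11.3 CPM on control (SD, n = 3 each).

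The strains share no library in these comparisons. 32 members fell in both, 84.2% of the 38 in VC3201 and 97% of the 33 in N2. Over all genes, 36.1% of those that fell in VC3201 and 81.8% of those that fell in N2 fell in both. 8 members rose in both: ugt-2, ugt-8, ugt-13, ugt-24, ugt-43, ugt-44, ugt-55 and ugt-58. The small rise of ugt-58 in N2 (0.18 ± 0.07, SE; limma, adjusted p = 0.0284) was no longer called without N2 control replicate 1 or 3 or N2 elt-2 RNAi replicate 2, with changes of 0.14 to 0.19 (adjusted p = 0.0519 to 0.137), nor without the intensity trend (0.18, adjusted p = 0.053). ugt-25 alone was called in opposite directions, higher in VC3201 and lower in N2.

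ugt-22, on chromosome IV from 13639260 to 13644567, was among the highest members on control bacteria and was near 0 with elt-2 RNAi in VC3201. It had 0.38, 0.268 and 0.363 CPM in VC3201 with elt-2 RNAi, against 82.9, 72.6 and 73.8 CPM on control. The N2 libraries had 3.52, 2.47 and 2.45 CPM with elt-2 RNAi, against 80.99, 86.5 and 81.7 CPM on control. The log2 change was -5.85 ± 0.10 in VC3201 and -4.47 ± 0.10 in N2 (SE; limma, adjusted p = 2.04e-28 and 5.61e-25). This scale understates changes of genes that end below 1 CPM. The interaction with strain was -1.38 (adjusted p = 7.73e-10) and -0.43 with a pseudocount of 5 CPM. Exons of ugt-22 overlap those of srz-29 on the opposite strand by 309 bases, and the strand setting of the counting is not given in the sources used here.

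ugt-47 and ugt-17 lie next to each other on the minus strand of chromosome V, from 10096305 to 10104964. ugt-47 had 5.96, 4.97 and 4.75 CPM in VC3201 with elt-2 RNAi, against 83.2, 93.8 and 85.3 CPM on control. N2 worms had 23.2, 26.7 and 26.2 CPM with elt-2 RNAi, against 79.3, 75.8 and 77.5 CPM on control. No libraries overlapped, and the fall was larger in VC3201 (interaction -2.25 ± 0.10, SE; limma, adjusted p = 9.32e-17), the most negative of the 56 members. ugt-17 had 0.121, 0.185 and 0.363 CPM in VC3201 with elt-2 RNAi, against 15.3, 13.8 and 13.5 CPM on control. Its N2 values were 0.239, 0.224 and 0.136 CPM with elt-2 RNAi, against 13.2, 15.01 and 12.5 CPM on control. It thus fell below 0.4 CPM in all 6 libraries with elt-2 RNAi, and no difference between the strains was called.

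ugt-23, on chromosome X from 9922862 to 9925173, had 1.22, 1.01 and 0.951 CPM in VC3201 with elt-2 RNAi, against 20.7, 22.1 and 22.6 CPM on control. In N2 it had 3.903, 3.41 and 3.15 CPM with elt-2 RNAi, against 27.6, 26.4 and 27.2 CPM on control. ugt-53 had 0.022, 0.0496 and 0.022 CPM in VC3201 with elt-2 RNAi, where 0.022 CPM is the lowest value in every library, against 10.1, 10.7 and 9.91 CPM on control. In N2 ugt-53 had 0.389, 0.261 and 0.633 CPM with elt-2 RNAi, against 9.005, 9.15 and 8.85 CPM on control. ugt-62 fell by nearly the same amount in the 2 strains, with 4.34, 4.44 and 3.96 CPM in VC3201 with elt-2 RNAi against 22.9, 22.9 and 23.1 CPM on control, and 15.5, 14.2 and 14.7 CPM in N2 with elt-2 RNAi against 69.04, 71.7 and 71.6 CPM on control. Its interaction was -0.01 ± 0.08 (SE; limma, adjusted p = 0.95), and with a pseudocount of 5 CPM it was 0.34 and called (adjusted p = 3.12e-05). ugt-48 had 1.39, 1.601 and 1.61 CPM in VC3201 with elt-2 RNAi, against 13.04, 12.7 and 14.9 CPM on control, and 2.77, 1.996 and 2.45 CPM in N2, against 12.02, 12.1 and 13.1 CPM on control.

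**Figure D4:**
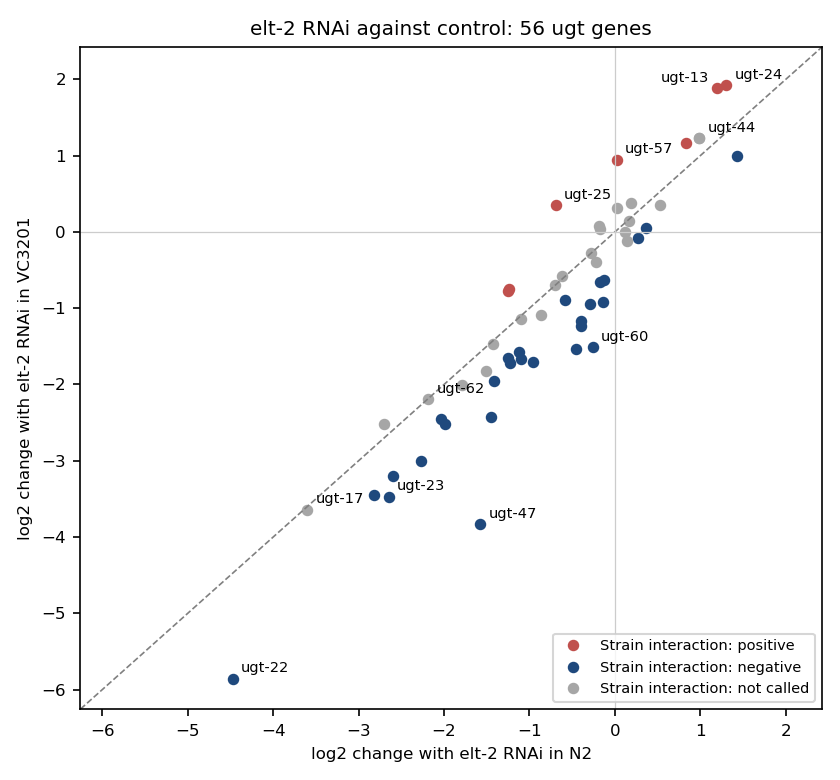
log2 change with elt-2 RNAi against control in VC3201 (vertical axis) and in N2 (horizontal axis) for 56 ugt genes, coloured by the strain term. Most genes lie at lower left, ugt-22 at -5.85 and -4.47 and ugt-47 at -3.83 and -1.58, while ugt-13, ugt-24 and ugt-44 lie at upper right.

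The members that rose with elt-2 RNAi included ugt-13, ugt-44 and ugt-43. ugt-13 had 46.05, 48.05 and 45.05 CPM in VC3201 with elt-2 RNAi, against 10.97, 11.3 and 13.5 CPM on control, and 28.5, 30.6 and 25.6 CPM in N2 with elt-2 RNAi, against 11.2, 12.4 and 11.6 CPM on control. Its rise was larger in VC3201 (interaction 0.69 ± 0.10, SE; limma, adjusted p = 1.24e-06). ugt-44, on chromosome IV from 10469741 to 10471899, had 73.6, 82.8 and 72.4 CPM in VC3201 with elt-2 RNAi, against 27.4, 36.4 and 32.7 CPM on control. The N2 libraries had 51.6, 60.1 and 54.8 CPM with elt-2 RNAi, against 28.4, 25.9 and 28.2 CPM on control. These libraries did not overlap in either strain. Its neighbour ugt-43 had 11.3, 10.4 and 8.97 CPM in VC3201 with elt-2 RNAi, against 4.19, 4.59 and 5.098 CPM on control, and 8.93, 10.6 and 8.77 CPM in N2 with elt-2 RNAi, against 2.76, 3.34 and 2.58 CPM on control. With elt-2 RNAi the highest member per length in VC3201 was ugt-44 (41.9 CPM per kb), and in N2 ugt-58 (30.96 CPM per kb) and ugt-44 (30.5 CPM per kb).

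ugt-2, which in N2 rose with cco-1 RNAi, also rose with elt-2 RNAi. It had 15.5, 14.4 and 14.3 CPM in VC3201 with elt-2 RNAi, against 4.82, 6.44 and 6.96 CPM on control, and 12.5, 14.2 and 13.6 CPM in N2 with elt-2 RNAi, against 7.2002, 7.02 and 7.14 CPM on control. ugt-24 had 13.5, 13.5 and 12.3 CPM in VC3201 with elt-2 RNAi, against 2.52, 2.37 and 3.31 CPM on control, and 5.54, 6.31 and 5.37 CPM in N2 with elt-2 RNAi, against 2.05, 1.16 and 2.09 CPM on control. ugt-60, on chromosome III from 9676320 to 9679051, had 3.501, 3.01 and 3.301 CPM in VC3201 with elt-2 RNAi, against 10.6, 10.9 and 11.9 CPM on control. N2 worms had 7.14, 7.41 and 7.32 CPM with elt-2 RNAi, against 9.15, 8.89 and 8.77 CPM on control, and the difference between the strains was called (-1.25 ± 0.12, SE; limma, adjusted p = 6.68e-10).

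Tested over the 56 members, the strain term of elt-2 RNAi was positive for 7 and negative for 27, against 30.7% and 42.1% of all genes (72.8% in either direction). The split depended on scaling, with 12 positive and 19 negative under trimmed-mean scaling, which moved the all-gene median of this term to 0.02, against -0.13 as fitted. It was 10 positive and 22 negative where the quantile normalization was partly undone. ugt-47, ugt-22 and ugt-60 kept their sign and call under both of these scalings.

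The intestinal markers moved with elt-2 RNAi too. Their summed level was 2969 to 3156 CPM in VC3201 with elt-2 RNAi, against 6329.7 to 7372 CPM on control, and 4531 to 4777 CPM in N2, against 5923 to 5939 CPM on control. Of the 12, 5 rose and 7 fell in VC3201, and 2 rose and 9 fell in N2. The share of all genes called was 85.8% in VC3201 and 48% in N2. vha-6, a subunit of the apical intestinal proton pump, had 7.65, 9.37 and 10.01 CPM in VC3201 with elt-2 RNAi, against 190.1, 218 and 236 CPM on control, whereas pept-1, the intestinal peptide transporter, had 216, 208 and 198 CPM, against 103, 103 and 103 CPM. In N2, vha-6 had 64.6, 56.7 and 62.5 CPM with elt-2 RNAi, against 221, 229.6 and 214 CPM on control, and pept-1 131, 141 and 135 CPM, against 104, 109 and 98.2 CPM. mtl-2, an intestinal metallothionein, was near the lowest value with elt-2 RNAi, with 0.0496, 0.022 and 0.022 CPM in VC3201 and 0.0532, 0.022 and 0.022 CPM in N2, against 13.4, 14.1 and 15.03 CPM and 22.8, 21.96 and 26.2 CPM on control. Members of the intestinal list thus moved in both directions. Of 8 hypodermal markers, 5 rose and 3 fell in VC3201 with elt-2 RNAi, led by cuticle collagens such as bli-1 (198, 221 and 229.8 CPM, against 6.76, 7.64 and 6.59 CPM on control). The 6 germline markers all fell in VC3201 (median -0.68), and in N2 2 rose and 1 fell. The part of these shifts in the ugt changes was not tested, nor was a difference in stage between the groups.

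Most members also fell where elt-2 RNAi was combined with cco-1 RNAi. In VC3201, 14 members were higher and 34 lower with both RNAi relative to cco-1 RNAi, against 81.1% of all genes called (36.5% higher, 44.6% lower). In N2, 6 were higher and 33 lower, against 34.1% of all genes (17.6% higher, 16.5% lower). Libraries did not overlap for 48 members in VC3201 and 44 in N2, against 82.5% and 47.8% of all genes. The member median was -0.89 in VC3201 and -0.36 in N2 on the log2 scale. A total of 24 members were lower in all 4 comparisons with elt-2 RNAi, on control and on cco-1 RNAi bacteria in both strains, and ugt-13, ugt-43 and ugt-44 were higher in all 4. Of all genes, 9.86% were lower and 12.6% higher in all 4. The members that reached 1 CPM only without elt-2 RNAi, all but ugt-37, are among the 24 and are no support. The comparisons on control and on cco-1 RNAi bacteria share no library within a strain. In N2, 25 members were lower in both, 75.8% of the 33 of each, against 72.3% and 54.7% of all genes lower on cco-1 RNAi and on control bacteria.

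Among the genes that cco-1 RNAi had raised, ugt-62 had 5.09, 5.14 and 4.65 CPM in VC3201 with both RNAi, against 30.3, 33.3 and 30.8 CPM with cco-1 RNAi. Its N2 values were 61.5, 58.2 and 59.7 CPM with both RNAi, against 413, 417 and 419 CPM with cco-1 RNAi, below the 69.04, 71.7 and 71.6 CPM of the N2 control libraries. Other genes raised in N2 that were lower once elt-2 RNAi was added were ugt-2, ugt-16, ugt-19, ugt-36, ugt-50 and ugt-61, while ugt-12, ugt-13 and ugt-24 were higher with both. These calls share the cco-1 RNAi libraries with the rises.

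In VC3201, too, several genes raised by cco-1 RNAi were lower when elt-2 RNAi was added, while ugt-8, ugt-13, ugt-25 and ugt-58 were higher with both. These calls again share the cco-1 RNAi libraries. ugt-31 had 2.04, 1.997 and 1.84 CPM in VC3201 with both RNAi, against 22.9, 24.7 and 22.7 CPM with cco-1 RNAi. ugt-29 had 4.14, 5.63 and 5.04 CPM with both RNAi, against 50.2, 54.1 and 47.2 CPM with cco-1 RNAi. ugt-26 had 2.94, 3.63 and 2.904 CPM with both RNAi, against 37.4, 42.1 and 35.8 CPM with cco-1 RNAi. For these 3 genes every library with both RNAi was below every library with cco-1 RNAi. ugt-24 had 16.3, 13.2 and 16.1 CPM with both RNAi, against 19.3, 19.5 and 16.98 CPM with cco-1 RNAi, a smaller difference.

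In N2 the response to cco-1 RNAi was also measured on elt-2 RNAi bacteria. With both RNAi, 19 members were higher and 4 lower than with elt-2 RNAi, against 19.2% of all genes called (10.3% higher, 8.9% lower). Libraries did not overlap for 28 members, against 36% of all genes. ugt-21, on chromosome IV from 9500311 to 9502574, had 19.3, 17.5 and 19.6 CPM with both RNAi, against 4.44, 3.78 and 3.236 CPM with elt-2 RNAi, a rise of 2.04 ± 0.12 (log2, SE; limma, adjusted p = 3.39e-13). ugt-62 had 61.5, 58.2 and 59.7 CPM with both RNAi, against 15.5, 14.2 and 14.7 CPM with elt-2 RNAi, a rise of 1.95 ± 0.06 (adjusted p = 1.25e-20). ugt-12, on chromosome V from 4887165 to 4889629, had 64.4, 66.7 and 69.7 CPM with both RNAi, against 27.9, 32.4 and 30.5 CPM with elt-2 RNAi. None of these libraries overlapped, and each gene also rose on control bacteria.

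**Figure D5:**
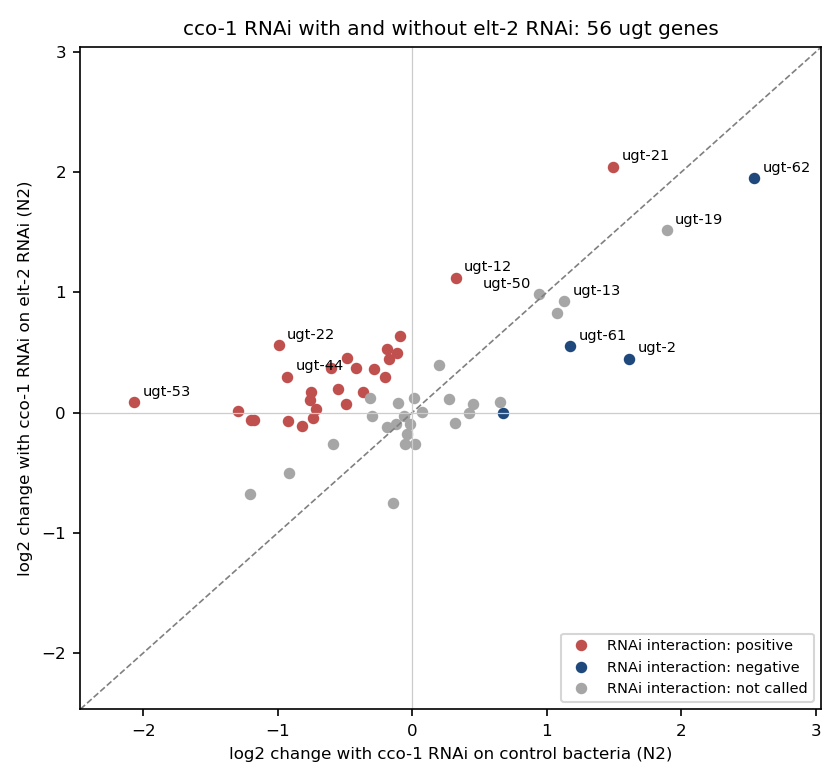
log2 change with cco-1 RNAi in N2 on elt-2 RNAi bacteria (vertical axis) and on control bacteria (horizontal axis) for 56 ugt genes, coloured by the interaction of the 2 RNAi. ugt-53, ugt-22 and ugt-44 fell on control bacteria and lie near or above 0 on elt-2 RNAi, ugt-4 and ugt-25 fell on both, and ugt-62, ugt-19 and ugt-21 were raised on both. All N2 libraries with elt-2 RNAi had ugt-53 below 1 CPM.

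The interaction of the 2 RNAi in N2 was called for 30 members, 26 positive and 4 negative, against 13% of all genes (7.09% positive, 5.95% negative). The member median was 0.42 (log2) and the all-gene median -0.03. The term shares its libraries with the changes under each single RNAi. Of the 26 positive members, 22 fell with elt-2 RNAi alone and 19 fell with cco-1 RNAi alone. Some, such as ugt-6, ugt-17, ugt-32, ugt-33, ugt-51, ugt-52, ugt-53 and ugt-65, were below 1 CPM with elt-2 RNAi. On the log2(CPM + 1) scale these had little room for a further fall, so their positive terms are no support. ugt-44 had 67.3, 68.9 and 69.1 CPM with both RNAi, 51.6, 60.1 and 54.8 CPM with elt-2 RNAi, 14.2, 13.1 and 14.6 CPM with cco-1 RNAi and 28.4, 25.9 and 28.2 CPM on control. It thus fell with cco-1 RNAi given alone and rose with it on elt-2 RNAi (interaction 1.23 ± 0.11, SE; limma, adjusted p = 1.61e-09). ugt-22 had 4.66, 3.96 and 5.21 CPM with both RNAi, against 3.52, 2.47 and 2.45 CPM with elt-2 RNAi, an interaction of 1.55 ± 0.14 (adjusted p = 1.33e-09).

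The 4 members with a negative term were ugt-2, ugt-8, ugt-61 and ugt-62. ugt-2 had 19.4, 18.9 and 17.8 CPM with both RNAi, against 12.5, 14.2 and 13.6 CPM with elt-2 RNAi. This rise of 0.45 compares with one of 1.61 on control bacteria (interaction -1.16 ± 0.13, SE; limma, adjusted p = 1.51e-07). For ugt-62 the interaction was -0.59 ± 0.08 (adjusted p = 1.7e-06), so that its rise on elt-2 RNAi bacteria, though called, was smaller on the log2 scale.

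On control bacteria, the strains differed in 26 of the 56 ugt genes (46.4%), a share near that of all genes (49.3%). Of these 26, 13 members were higher and 13 lower in VC3201 than in N2. Of all genes, 26.7% were higher and 22.6% lower. Libraries did not overlap for 32 members, against 53.4% of all genes. ugt-62 had 22.9, 22.9 and 23.1 CPM in VC3201, against 69.04, 71.7 and 71.6 CPM in N2, a difference of -1.58 ± 0.06 (log2, SE; limma, adjusted p = 5.84e-19). ugt-50, whose exons overlap nhr-26 on the opposite strand by 340 bases, had 15.5, 16.9 and 14.9 CPM in VC3201, against 21.9, 19.5 and 22.7 CPM in N2. ugt-5 had 10.2, 12.2 and 11.6 CPM in VC3201, against 7.68, 7.85 and 7.59 CPM in N2, and ugt-23 20.7, 22.1 and 22.6 CPM, against 27.6, 26.4 and 27.2 CPM. ugt-60 had 10.6, 10.9 and 11.9 CPM in VC3201, against 9.15, 8.89 and 8.77 CPM in N2.

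The calls of small differences on control bacteria depended on the libraries kept. ugt-63 (0.34 ± 0.10, log2, SE) was no longer called without the VC3201 control replicate 2 (0.21, limma, adjusted p = 0.0953). ugt-45 (0.21 ± 0.07) was no longer called without the N2 control replicate 3 (0.15, adjusted p = 0.0997). ugt-64 (-0.19 ± 0.07) lost its call without any one of the VC3201 control replicates 1, 2 and 3 or the N2 control replicates 1 and 2, with differences of -0.19 to -0.16 (adjusted p = 0.0543 to 0.105). ugt-44 (0.21 ± 0.08) lost its call without the VC3201 control replicates 2 or 3 or the N2 control replicate 2, in a fit of these groups alone and under trimmed-mean scaling, with differences of 0.12 to 0.21 (adjusted p = 0.0569 to 0.224).

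Tissue markers differed between the strains as well, and their part was not tested. Of 8 hypodermal genes, 6 were lower and 0 higher in VC3201 on control bacteria (median -1.14, log2), with summed levels of 1187 to 1230.1 CPM in VC3201, against 1364 to 1618 CPM in N2. Of 5 body muscle genes, 4 were lower (median -0.39), and of the 12 intestinal genes 2 were higher and 3 lower. The share of all genes called was 49.3%. With cco-1 RNAi, 1 hypodermal gene was higher and 3 lower in VC3201 than in N2, and 1 of 6 germline genes was higher and 4 lower. There 55.8% of all genes were called.

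With cco-1 RNAi 20 members were higher and 15 lower in VC3201 than in N2, against 55.8% of all genes called (26.6% higher, 29.2% lower). Libraries did not overlap for 37 members, against 58.2% of all genes. ugt-62 was lower in VC3201, with a difference of -3.69 ± 0.06 (log2, SE; limma, adjusted p = 2.29e-28), and so was ugt-19 (-2.55 ± 0.13). ugt-50 had 17.4, 16.99 and 17.2 CPM in VC3201 with cco-1 RNAi, against 44.1, 45.2 and 37.1 CPM in N2 with cco-1 RNAi. Members higher in VC3201 were led by ugt-24 (2.42 ± 0.12), ugt-26 (2.38 ± 0.10), ugt-31 (2.29 ± 0.14) and ugt-29 (2.21 ± 0.12). ugt-44 had 29.6, 32.1 and 27.4 CPM in VC3201 with cco-1 RNAi, against 14.2, 13.1 and 14.6 CPM in N2 with cco-1 RNAi. The lower level of ugt-13 in VC3201 (-0.19 ± 0.07, adjusted p = 0.0304) was no longer called without any one of 4 libraries, N2 cco-1 RNAi replicates 1 and 2 and VC3201 cco-1 RNAi replicates 2 and 3, with differences of -0.19 to -0.14 (adjusted p = 0.0617 to 0.145). The same held in a fit of these groups alone (-0.19, adjusted p = 0.0716) and under trimmed-mean scaling (-0.13, adjusted p = 0.133).

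Neighbouring ugt genes did not always share a call, and they were not compared with members lying apart. Of the 56 members, 34 lie on chromosome V, 11 on IV, 4 each on I and X, 2 on III and 1 on II. Genes no more than 10000 bases apart formed 11 tandem arrays of 32 ugt genes, 28 of them members, and 9 arrays held at least 2 members. With elt-2 RNAi all members of an array moved one way in 3 of the 9 arrays, and some moved in opposite directions in 4 arrays in VC3201 and 1 array in N2. With cco-1 RNAi opposite directions were called within 4 arrays in each strain. In the pair ugt-1 and ugt-2, from 10395663 to 10401307 on chromosome V, ugt-1 fell and ugt-2 rose with elt-2 RNAi in both strains. The longest array, 7 genes on chromosome V from 4887165 to 4911399, held ugt-13, ugt-12 and ugt-8, which rose with elt-2 RNAi in N2, beside ugt-11, ugt-9 and ugt-14, which were not called. The highest group mean of ugt-14 was only 1.52 CPM. Sharing of reads between near-identical ugt genes was not tested, and the values of array members are uncertain to that extent. ugt-40 and ugt-37 share 42 bases of exons on the same strand.

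Genes that make and use UDP-glucuronate, the donor of glucuronic acid, fell mainly in VC3201 with elt-2 RNAi. This list of 9 tested genes, of 11 listed, holds sqv-4, the UDP-glucose dehydrogenase that makes UDP-glucuronate, and other genes of the glycosaminoglycan route. Which sugar donor the worm UGTs use was not tested. With cco-1 RNAi 6 of the 9 fell in VC3201 and 0 of 9 were called in N2, where 1, sqv-6, had an unadjusted p under 0.05 in limma. The share of all genes was 37.1% lower in VC3201 and 33.8% called in N2. With elt-2 RNAi all 9 fell in VC3201 (median -0.68, against -0.18 for all genes), and 2 fell in N2. The shares of all genes that fell were 49.4% in VC3201 and 21.8% in N2. All 6 germline markers fell in VC3201 as well (median -0.68). sqv-4 changed by -0.70 ± 0.05 in VC3201 (log2 and SE from limma, adjusted p = 3.11e-13) and by -0.01 ± 0.05 in N2 (adjusted p = 0.887). The interaction was called negative for all 9, against 42.1% of all genes negative and 72.8% called in either direction.

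Among 11 regulators of xenobiotic genes, nhr-8, a nuclear hormone receptor required for resistance to toxins, was higher with cco-1 RNAi and lower with elt-2 RNAi in both strains. It had 29.95, 24.9 and 29.4 CPM in VC3201 with cco-1 RNAi, against 18.8, 18.9 and 17.3 CPM on control, and 29.8, 28.97 and 28.95 CPM in N2 with cco-1 RNAi, against 16.3, 15.2 and 14.8 CPM on control. With elt-2 RNAi it had 6.23, 6.16 and 6.14 CPM in VC3201 and 6.73, 5.38 and 6.63 CPM in N2. skn-1, the factor of the oxidative stress response, changed by 0.04 ± 0.05 in VC3201 and 0.12 ± 0.05 in N2 with cco-1 RNAi, neither of them called (limma, adjusted p = 0.489 and 0.057). Of the 11 regulators, 3 rose and 4 fell in VC3201 with cco-1 RNAi, and 1 rose and 0 fell in N2. The shares of all genes called were 64% and 33.8%. With elt-2 RNAi 6 rose and 3 fell in VC3201, and 6 rose and 1 fell in N2. For that RNAi 85.8% and 48% of all genes were called.

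ABC transporters carry drugs and conjugates out of cells. Of 14 tested P-glycoprotein (pgp) genes, 10 rose and 4 fell in VC3201 with cco-1 RNAi (median 0.91, log2), and 4 rose and 3 fell in N2 (median 0.14), against 64% and 33.8% of all genes called in either direction. The interaction of cco-1 RNAi with strain was positive for 8 and negative for 3 of the 14, against 40% of all genes called. pgp-5 rose by 1.77 ± 0.12 in VC3201 (log2, SE; limma, adjusted p = 4.4e-13) and changed by -0.20 ± 0.12 in N2 (adjusted p = 0.212), whereas pgp-9 rose by 0.61 ± 0.07 in VC3201 and by 1.64 ± 0.07 in N2. Of 8 mrp genes, which encode transporters of conjugates, 3 rose and 3 fell in VC3201 with cco-1 RNAi, and 2 rose and 2 fell in N2. Their interaction was positive for 2 and negative for 1, a share near that of all genes. With elt-2 RNAi 3 of the 8 rose and 5 fell in VC3201, and 2 rose and 2 fell in N2. The shares of all genes called were 85.8% and 48%. Of the 8, mrp-5 rose most, by 1.61 ± 0.05 in VC3201 and 1.07 ± 0.05 in N2. mrp-3 fell most, with log2 changes of -2.85 ± 0.12 in VC3201 and -2.31 ± 0.12 in N2.

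Of the genes that the authors' deposited table lists as raised by cco-1 RNAi, 14 (0.779%) are ugt genes, 13 of them members here, while ugt genes make up 0.366% of the whole table. Its list of 517 ELT-2-dependent genes holds 7 ugt genes (1.35%), ugt-3, ugt-16, ugt-19, ugt-36, ugt-50, ugt-61 and ugt-62. Its list of 719 ATFS-1-dependent genes holds 10 (1.39%), namely ugt-2, ugt-3, ugt-8, ugt-12, ugt-19, ugt-21, ugt-36, ugt-50, ugt-61 and ugt-62. In the authors' deposited table, the log2 change of ugt-62 with cco-1 RNAi was 0.45 in VC3201 and 2.56 in N2. ugt-31, ugt-29 and ugt-26, the members with the most positive interaction with strain, are in none of these lists, which were drawn from genes raised in N2.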

How the data were processed

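PolyA-enriched RNA of whole worms was sequenced on a BGISeq500, per the labels' protocols. The build was WBcel235 (ce11), and the tools named were edgeR 3.24.3 and STAR 2.73a, per the submitters' processing notes. How reads were counted, and with which strand setting and annotation, is not given here. The deposited values are CPM, called normalized counts in the authors' key sheet. Column sums are equal (1000373) and sorted columns nearly so, as quantile normalization over the 24 libraries gives. It fixes the values of abundant genes by rank. The deposited tables also hold the authors' log2 fold changes, their p-values, from Limma-Voom per the key sheet, and their scores of dependency. Of these, only the log2 fold changes of ugt-62 and the authors' gene lists were used.

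Genes below a mean of 1 CPM in all 8 groups were dropped. log2(CPM + 1) of all 24 libraries was fitted in 1 model of 8 group means with limma 3.58.1 in R 4.3.3 (empirical Bayes with intensity trend, 16 residual degrees of freedom). Tests were 2-sided, Benjamini-Hochberg adjusted over 14561 genes within each of 12 comparisons, and called at an adjusted p under 0.05. A count model had been planned only for raw counts and was not used. Reads were ranked back from tied low values (at least 5 genes per level), for 48.6 to 61.5% of genes per library. No library was left out, and no 2 libraries held identical values.

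In simulated data for cco-1 RNAi in N2, built from the real means, the fit recovered 95.5% of the genes given a 1.5-fold change and 100% of those given a 2-fold or 4-fold change, with 7 false calls among 14561 genes. Only 200 genes of at least 5 CPM in the N2 control were changed, with normal noise, whereas 4926 genes were called in the real comparison. Recovery of members below 5 CPM was not tested. Positions and exon lengths of all 62 ugt genes were read from Ensembl's WBcel235 annotation. Named were the called members with the largest change in each comparison (up to 5 per direction, mean of at least 10 CPM, no overlap between libraries; up to 4 per sign for interactions), the 5 of highest mean CPM, and ugt-62 and ugt-22. Some genes are also given outside the comparison that named them, and genes from the other lists were chosen after their values were seen. The members, lists and rules were chosen with earlier results of these data known. Alternatives were pseudocounts of 0.5 and 5 CPM, no filter and a filter of 5 CPM, no trend, only the groups compared, a replicate block, trimmed-mean scaling, leaving out each library, and, chosen after seeing the data, quantile normalization partly undone.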

Additional observations from a re-analysis of the deposited data

Results flagged for a closer look

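For 14 named ugt genes the effect of an RNAi differed between VC3201 and N2 by the interaction test in limma (log2 differences, VC3201 minus N2, adjusted over all genes). With cco-1 RNAi the difference was 2.88 for ugt-31, 2.39 for ugt-29, 2.15 for ugt-26, 1.97 for ugt-24, 0.82 for ugt-44 and 0.33 for ugt-47. It was -0.42 for ugt-22, -1.41 for ugt-2, -1.56 for ugt-19, -1.81 for ugt-61 and -2.10 for ugt-62. Of these, ugt-26 and ugt-61 moved in opposite directions in the strains.

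With elt-2 RNAi the difference was 0.69 for ugt-13, 0.62 for ugt-24 and 0.34 for ugt-2. It was -0.82 for ugt-23, -1.25 for ugt-60, -1.38 for ugt-22 and -2.25 for ugt-47. With a pseudocount of 5 CPM it was -0.23 for ugt-23, -0.78 for ugt-60 and -0.43 for ugt-22, all 3 still called. The call for ugt-2 was lost without VC3201 control replicate 1 (adjusted p = 0.124), VC3201 elt-2 RNAi replicate 1 (0.0562) or N2 elt-2 RNAi replicate 1 (0.064). Groups of 3 libraries were not tested for single outlying libraries.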

How the results depend on the processing

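The counts of called members in the 12 comparisons stayed within 1.5 times under every alternative run. Leaving out each library gave 42 to 44 members for elt-2 RNAi in N2, 45 to 48 in VC3201, 35 to 38 for cco-1 RNAi in N2 and 37 to 40 in VC3201. Of 2328 alternative values for 142 pairs of a named gene and a comparison, 2265 kept direction and side of the threshold, 27 lost a call, 20 gained one and 16 changed sign. The sign changes were in 5 pairs that had not been called. For ugt-62, elt-2 RNAi by strain, the values were 0.34 with a pseudocount of 5 CPM (called), 0.15 under trimmed-mean scaling and 0.047 with quantile normalization partly undone, and -0.035 to 0.034 without 1 library. For ugt-13, VC3201 against N2 on control, they were -0.019 under trimmed-mean scaling and -0.072 to 0.064 without 1 library. Without 1 library, ugt-58 gave -0.053 to 0.11 for cco-1 RNAi by strain and -0.017 to 0.063 for both RNAi against cco-1 RNAi in N2, and ugt-47 gave -0.000117 to 0.099 for cco-1 RNAi in VC3201. The cause was not tested. A pseudocount of 5 CPM moved changes of genes near 0 by over 1.5 times, such as ugt-17 with elt-2 RNAi (-1.88 in VC3201 and -1.83 in N2) and ugt-53 in VC3201 (-1.60).

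All changes are relative to the other genes, since total RNA per worm is unknown. The term of cco-1 with elt-2 RNAi in N2 was 23 positive and 7 negative with quantile normalization partly undone, and cco-1 RNAi in VC3201 was 20 higher and 20 lower under trimmed-mean scaling. Replicate numbers did not pair the libraries (correlations of same-numbered libraries -0.085 to 0.15). With the replicate block the counts changed by at most 1, to 38 for cco-1 RNAi in N2, 44 for elt-2 RNAi in N2, 40 for both against cco-1 RNAi in N2, 31 for the RNAi interaction, 36 for VC3201 against N2 with cco-1 RNAi and 35 for elt-2 RNAi by strain, with no change in the other 6 comparisons.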
